A study of Mus musculus with 4 samples.

Results

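The genes described are 6 regulators of G protein signalling (RGS), Rgs1, Rgs2, Rgs3, Rgs10, Rgs16 and Rgs19, taken by name from the 17561 genes of a single-cell count table of mouse bone marrow (BM) CD8+ T cells. Of these 6 genes, all were matched to an Ensembl identifier. The table held 11754 cells in 8 clusters and 4 libraries, with a TCR for 7961 of the cells. The cells came from myeloma-bearing recipients of a stem cell transplant (SCT), on a C57BL/6 background, harvested at week 4 (day 28) after transplant. Recipients and donors were female and 8 to 12 weeks old, and either wild type or transgenic for a cereblon (CRBN) altered so that lenalidomide can degrade its targets in mouse cells. The graft held 10000000 BM cells with added T cells. The 4 groups were isotype control antibody (cIg) with vehicle, αTIGIT with vehicle, cIg with lenalidomide, and αTIGIT with lenalidomide, which was given from day 14, and each group was 1 library pooled from 5 mice.

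The libraries carry only the numbers 1 to 4 in the table, and no label says which number is which treatment. Treatments were therefore not compared, and every value below is given by cluster and by library number. The clusters were made by the authors from the same counts, so a difference between clusters is a description and carries no test. Expression is in CPM, which is the UMIs of a gene per 1000000 UMIs of all genes in the cells of a cluster. An interval in brackets is an exact 95% interval, and it covers counting error only. A gene was called higher or lower when its CPM differed over 2-fold over all libraries, differed the same way in each of the 4 libraries, and reached 50 CPM on one side.

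RGS proteins speed up the hydrolysis of GTP by G protein α subunits and so shorten the signal of G protein–coupled receptors. In lymphocytes these receptors include those for chemokines and for sphingosine 1-phosphate, which guide entry into, stay in and exit from tissues. Rgs1 and Rgs16 are known from activated lymphocytes, where they dampen chemokine responses, whereas Rgs2 acts mainly on Gq subunits. Rgs3 can also bind βγ subunits, Rgs10 is a small member of the family that acts on Gi subunits, and Rgs19 was first found as a partner of Gαi3.

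Libraries held 1725 to 4237 cells with a median of 7115 to 7669 UMIs per cell, and medians per cluster ran from 5545 UMIs in transitory Teff to 13960 in cycling cells. The authors' cluster names were checked against marker lists. The 5 naive markers summed to 1481 CPM in Tn and to 171 to 683 CPM elsewhere, the 5 exhaustion markers to 2301 CPM in TIM-3+ Tex and 75.4 to 1600 CPM elsewhere, and the 4 cycling markers to 2422 CPM in cycling cells and 37.2 to 308 CPM elsewhere. Some names did not follow their markers, since the exhaustion list was as high in TIGIT+ Teff (1600 CPM) and transitory Teff (1251 CPM) as in GzmA+ Tex (1245 CPM) or higher. The 4 Teff markers were highest in TIM-3+ Tex (2072 CPM, against 1168 to 1671 CPM in the Teff clusters). GzmA+ Tex stood apart, since its 9 macrophage markers summed to 1555 CPM (1071 to 1770 over the libraries) against 7.43 to 88.3 CPM in the other clusters. In GzmA+ Tex, 94.7% of cells held 2 or more UMIs of macrophage, B and plasma cell, erythroid or neutrophil markers. In the other clusters this share was 28.8% to 52.6%. The libraries shared 56 cell barcodes, which covered 112 cells.

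Rgs16, Rgs1 and Rgs3 were called higher in the 5 Teff and Tex clusters together than in Tn, and Rgs10 was called lower. Of 5 members that reached 50 CPM, 3 were thus called higher, against 7.97% of all 2936 genes tested, and 1 lower, against 1.29%. The median log2 ratio of the genes tested was 0.27. Rgs19 differed little between clusters, and Rgs2 stayed below 50 CPM throughout and was not part of the count. The plot of CPM by cluster shows these patterns for the 6 genes.

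**Figure D1:**
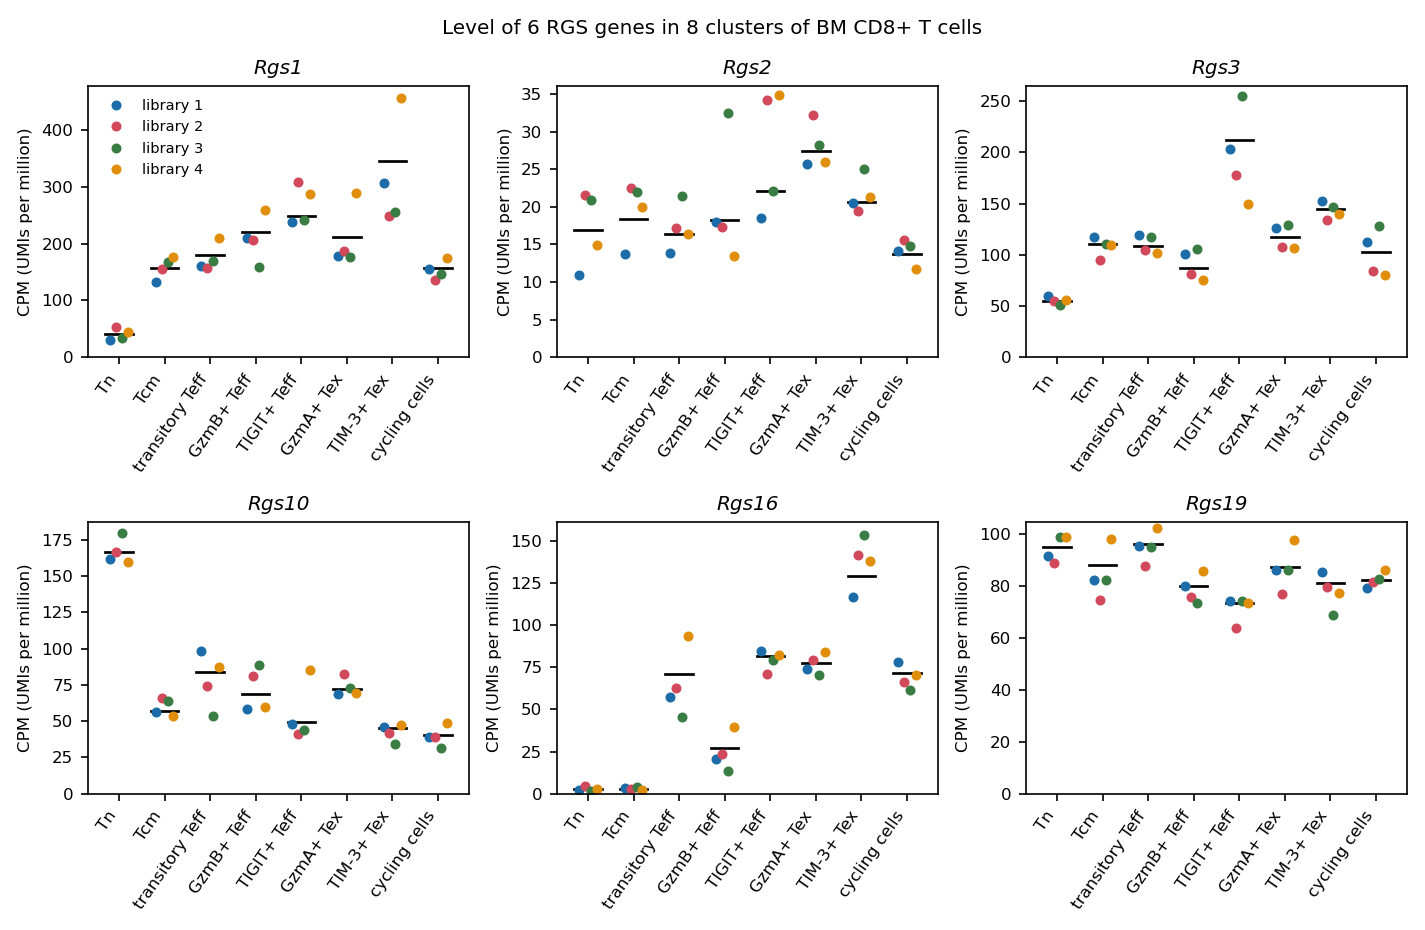
CPM (UMIs of the gene per 1000000 UMIs, linear axis from 0) of each gene in the 8 clusters. Each point is 1 library, coloured by library number, and the bar is the value over all libraries. Rgs16 is near 0 in Tn and Tcm in each library, Rgs10 is highest in Tn in each library, and Rgs19 stays between 63.8 and 102 CPM.

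Rgs16 (ENSMUSG00000026475) lies on chr1:153740349-153745468 of GRCm38, on the plus strand. Its promoter and that of Rgs10 are shown because these genes had opposite patterns, Rgs16 rising and Rgs10 falling from Tn to Teff and Tex. Both sequences are RefSeq promoters of GRCm38.p6, from 250 bases before to 50 bases after the start, printed 5′ to 3′ on the strand of the gene, and capitals mark matches to the GC box GGGCGG on either strand.
Rgs16 promoter, chr1:153740103-153740402, plus strand: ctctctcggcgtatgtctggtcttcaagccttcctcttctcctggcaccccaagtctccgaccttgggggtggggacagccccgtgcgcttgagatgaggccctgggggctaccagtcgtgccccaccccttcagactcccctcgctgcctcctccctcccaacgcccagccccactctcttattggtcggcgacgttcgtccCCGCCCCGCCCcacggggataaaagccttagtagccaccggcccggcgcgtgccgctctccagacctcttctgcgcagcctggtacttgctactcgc
Rgs10 promoter, chr7:128418123-128418422, minus strand: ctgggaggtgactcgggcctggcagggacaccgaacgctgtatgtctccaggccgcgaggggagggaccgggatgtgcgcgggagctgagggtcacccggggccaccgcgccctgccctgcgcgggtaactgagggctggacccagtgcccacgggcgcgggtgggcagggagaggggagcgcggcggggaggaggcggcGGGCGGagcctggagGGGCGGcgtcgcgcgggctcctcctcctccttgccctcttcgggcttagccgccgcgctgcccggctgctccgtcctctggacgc
Both windows held 2 matches, which overlap by 1 base in Rgs16, and 35.7% of the 32851 promoters in the RefSeq table held at least 1. Neither window held the letters of the TATA box TATAAA, the AP-1 motif TGANTCA, the CRE TGACGTCA, the NBRE AAAGGTCA or the NFAT core GGAAA, on either strand. Those letters were present in 13.6%, 7.81%, 1.79%, 1.51% and 61.3% of all promoters, in that order. In the gene annotation used here (GENCODE M21), Rgs10 starts at base 128418758 of the minus strand. The RefSeq window of Rgs10 lies wholly inside that gene, and the sequence before the GENCODE start was not examined. The table held a promoter for 5 of the 6 members, and the Rgs1 promoter was not analysed here.

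Rgs16 had 2.3, 4.4, 1.9 and 2.5 CPM in Tn of libraries 1 to 4, and 3.4, 2.7, 4.0 and 2.0 CPM in Tcm. In TIM-3+ Tex, its level was 116.6, 141.2, 153.1 and 137.7 CPM. Tn and Tcm overlapped, while TIM-3+ Tex lay above both and was the highest cluster in each library. Over all libraries, the Teff and Tex clusters held 80.9 CPM and Tn 2.75 CPM, a 29.4-fold difference (log2 4.88 [4.36 to 5.45], 4.11 to 5.20 in single libraries). Against Tcm, the log2 ratio was 4.87 [4.53 to 5.23].

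Between those ends, Rgs16 had 71.2 CPM in transitory Teff, 81.8 in TIGIT+ Teff, 77.4 in GzmA+ Tex and 71.7 in cycling cells, and these 4 neighbours in the order overlapped over libraries. GzmB+ Teff was set apart, with 20.4, 23.2, 13.6 and 39.3 CPM in the 4 libraries against 57.6, 62.9, 45.7 and 93.5 CPM in transitory Teff. The highest library of GzmB+ Teff lay below the lowest of transitory Teff, and the log2 ratio was −1.39 [−1.63 to −1.16]. GzmB+ Teff was also above Tcm in each library.

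The share of cells with an Rgs16 UMI was taken after each cell was thinned at random to 2500 UMIs. It was 26.9% [24.2 to 29.7] of TIM-3+ Tex, 19.0% of TIGIT+ Teff, 12.4% of transitory Teff and 4.78% [3.35 to 6.59] of GzmB+ Teff, and 55.9%, 33.9%, 24.1% and 12.4% unthinned. Cycling cells (14.7%) and GzmA+ Tex (13.8%) had shares between those of TIGIT+ and transitory Teff, and 41.5% and 38.9% unthinned. In Tn and Tcm the thinned share was 0.894% and 0.410%. Genes that T cells should lack gave the background in the same cells. In Tn the neutrophil gene S100a8 was found in 0.373% [0.121 to 0.867], the macrophage gene Lyz2 in 0.0745% [0.00189 to 0.414] and the B cell gene Cd79a in 0 of 1342 cells [0 to 0.275]. The interval of Rgs16 in Tn [0.463 to 1.56] overlapped that of S100a8 but lay above those of Lyz2 and Cd79a. In Tcm the Rgs16 share equalled that of S100a8, its interval [0.224 to 0.686] overlapped that of Lyz2 [0.120 to 0.499], and Cd79a was found in 0 of 3418 cells [0 to 0.108].

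Rgs1 (ENSMUSG00000026358, chr1:144242296-144249242, minus strand) was lowest in Tn, with 29.7, 52.3, 34.6 and 43.8 CPM in libraries 1 to 4. Tcm already held 133, 156, 167 and 176 CPM, with no overlap with Tn. The Tcm to Tn log2 ratio was 1.97 [1.83 to 2.12], and Rgs1 was the 1 member of 4 tested that was called higher there, against 2.87% of 2611 genes. Rgs1 and Rgs16 therefore differed in Tcm, where Rgs1 was 3.93-fold above Tn and Rgs16 was at 2.77 CPM against 2.75 CPM.

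From Tcm on, Rgs1 was higher still in the Teff and Tex clusters (240.6 CPM together, log2 ratio to Tcm 0.61 [0.56 to 0.66], positive in 4 of 4 libraries). The highest level over all libraries was in TIM-3+ Tex, with 307, 248, 256 and 456 CPM in the 4 libraries, and library 4 stood highest. TIGIT+ Teff held 238, 308, 242 and 288 CPM, so it lay above TIM-3+ Tex in library 2 and the ranges overlapped. The intervals of library 2 overlapped too, at 258 to 364 CPM in TIGIT+ Teff and 226 to 272 CPM in TIM-3+ Tex. The smallest library of TIGIT+ Teff held 50 cells. In the order of clusters only cycling cells and Tn were neighbours whose libraries did not overlap. Library 4 had the highest Rgs1 level in 6 of the 8 clusters. Whether this belongs to its treatment cannot be told, since the libraries are unlabelled and each treatment is 1 library.

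The thinned share of cells with an Rgs1 UMI was 8.87% in Tn, 28.8% in Tcm and 52.8% [49.8 to 55.9] in TIM-3+ Tex, and 22.4%, 54.1% and 82.9% unthinned. Within TIM-3+ Tex the level moved with depth. Its 352 cells with fewest UMIs (median 4588) had 591 CPM [553 to 630] and its 352 cells with most (median 15183) had 279 CPM [265 to 293], and a TCR was present in 90.6% and 13.6% of these cells. The same cells had 180 and 107 CPM of Rgs16. Thinning gave each cell the same number of UMIs but kept such differences between cells of low and high depth. The part of depth in the order of clusters was not tested.

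Rgs3 (ENSMUSG00000059810, chr4:62559847-62704001, plus strand) had 59.8, 54.7, 51.4 and 55.5 CPM in Tn, below every other cluster in each library. Its highest level was in TIGIT+ Teff, with 203, 178, 255 and 150 CPM, followed by TIM-3+ Tex with 152, 134, 147 and 140 CPM. These neighbours overlapped, although TIGIT+ Teff was higher in 4 of 4 libraries. Rgs3 also moved with depth. In TIGIT+ Teff it was 332 CPM in the 272 cells with fewest UMIs and 180 CPM in the 272 with most. A TCR was present in 76.1% and 11.8% of these cells. In TIM-3+ Tex the values of Rgs3 were 184 and 134 CPM. The part of depth was not tested. The Teff and Tex to Tn log2 ratio was 1.24 [1.12 to 1.37]. In Tcm it was 0.997 [0.870 to 1.13], just under 2-fold, so that Rgs3 was not called there.

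The TIGIT+ Teff level of Rgs3 was 0.86 [0.77 to 0.95] above the other 4 Teff and Tex clusters on the log2 scale. Rgs3 spans 144155 bp, and in this contrast genes over 100000 bp had a median log2 ratio of 0.96 (429 genes), whereas all 3596 genes had 0.27 and genes under 10000 bp −0.24. Of the long genes, 61.8% had a higher ratio than Rgs3. Rgs16 (5120 bp) had a ratio of 0.02 [−0.12 to 0.15] and Rgs1 (6947 bp) of 0.05 [−0.02 to 0.13].

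Rgs10 (ENSMUSG00000030844, chr7:128373621-128418758, minus strand) was highest in Tn, with 161.8, 166.6, 179.4 and 159.5 CPM in libraries 1 to 4. In Tcm it was 56.4, 65.7, 63.8 and 53.5 CPM and in TIM-3+ Tex 45.8, 41.7, 34.4 and 47.4 CPM. The lowest Tn library lay above every library of every other cluster. The log2 ratio to Tn was −1.35 [−1.43 to −1.26] for the Teff and Tex clusters and −1.54 [−1.64 to −1.44] for Tcm, where Rgs10 was the 1 member called lower, against 1.03% of genes. The thinned share of cells with an Rgs10 UMI was 31.9% in Tn, 13.1% in Tcm and 8.81% in TIM-3+ Tex (63.9%, 29.6% and 27.8% unthinned).

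Among the other clusters, Rgs10 over all libraries was highest in transitory Teff, at 98.5, 74.4, 53.8 and 87.6 CPM, and library 3 was the lowest. These values rested on the cells with most UMIs. Split into 3 equal classes from fewest to most UMIs, transitory Teff had 37.3, 60.1 and 111 CPM of Rgs10, and a TCR was present in 86.8% of cells of the lowest class and 55.1% of the highest. Of these cells, 70.0% kept the name under the Leiden number, against 93.0% to 99.5% in the other clusters. The lowest level was in cycling cells, at 40.6 CPM.

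Rgs2 (ENSMUSG00000026360, chr1:143999338-144004161, minus strand) lies near Rgs1 on the same strand, and had a different profile. It ranged from 13.7 CPM in cycling cells to 27.5 CPM in GzmA+ Tex, and no neighbours in this order were apart over libraries. Tn held 10.9, 21.6, 20.8 and 14.9 CPM and GzmA+ Tex 25.6, 32.2, 28.3 and 26.0 CPM, with no overlap. GzmA+ Tex is the cluster with the macrophage markers given above, and 30 of its 571 cells lacked UMIs of other cell types by the rule above. In those 30 cells Rgs2 was at 31.6 CPM, a value that rests on few cells and was given no interval. Whether the Rgs2 level of GzmA+ Tex belongs to its T cells was not tested. Against Tn, the Teff and Tex clusters together had a log2 ratio of 0.26 [0.02 to 0.49], −0.03 to 0.80 in single libraries and 0.020 without cells that held UMIs of other cell types.

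Rgs19 (ENSMUSG00000002458, chr2:181688419-181693977, minus strand) had 91.5, 88.7, 98.7 and 98.9 CPM in Tn and 85.5, 79.5, 68.7 and 77.1 CPM in TIM-3+ Tex. Over all libraries, the 8 clusters lay between 73.2 and 96.1 CPM, and no neighbours in the order were apart. The Teff and Tex to Tn log2 ratio was −0.15 [−0.25 to −0.05], and it was negative in 4 of 4 libraries. The thinned share of cells with a UMI was 14.8% to 22.8%, and 36.9% to 61.1% unthinned.

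Within the Teff and Tex clusters, TIM-3+ Tex was compared with transitory Teff, which precedes the Tex subsets on the trajectory of the study. Rgs1 (log2 0.94 [0.87 to 1.02]), Rgs16 (0.86 [0.74 to 0.98]) and Rgs3 (0.41 [0.30 to 0.52]) were higher in TIM-3+ Tex in 4 of 4 libraries, and Rgs10 (−0.89 [−1.05 to −0.73]) was lower in 4 of 4. None of the 5 members tested passed 2-fold, while 1.28% of 2891 genes were called higher and 0.726% lower. Rgs16 and Rgs1 crossed 2-fold when cells were thinned (1.17 and 1.18) or each clonotype had the weight of 1 cell (1.78 and 1.21).

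Cycling cells, compared with the Teff and Tex clusters, held less Rgs1 (log2 −0.62 [−0.67 to −0.57]), Rgs10 (−0.69 [−0.79 to −0.59]), Rgs2 (−0.56 [−0.75 to −0.39]) and Rgs3 (−0.36 [−0.42 to −0.29]), each in 4 of 4 libraries. Rgs16 was at −0.17 [−0.26 to −0.09], −0.06 without library 4, and Rgs19 at −0.06 [−0.13 to 0.02]. Of the 5 members tested, 0 were called higher, against 7.35% of 3281 genes, and 0 lower, against 0.671%. The plot of log2 ratios sets the 4 comparisons side by side.

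**Figure D2:**
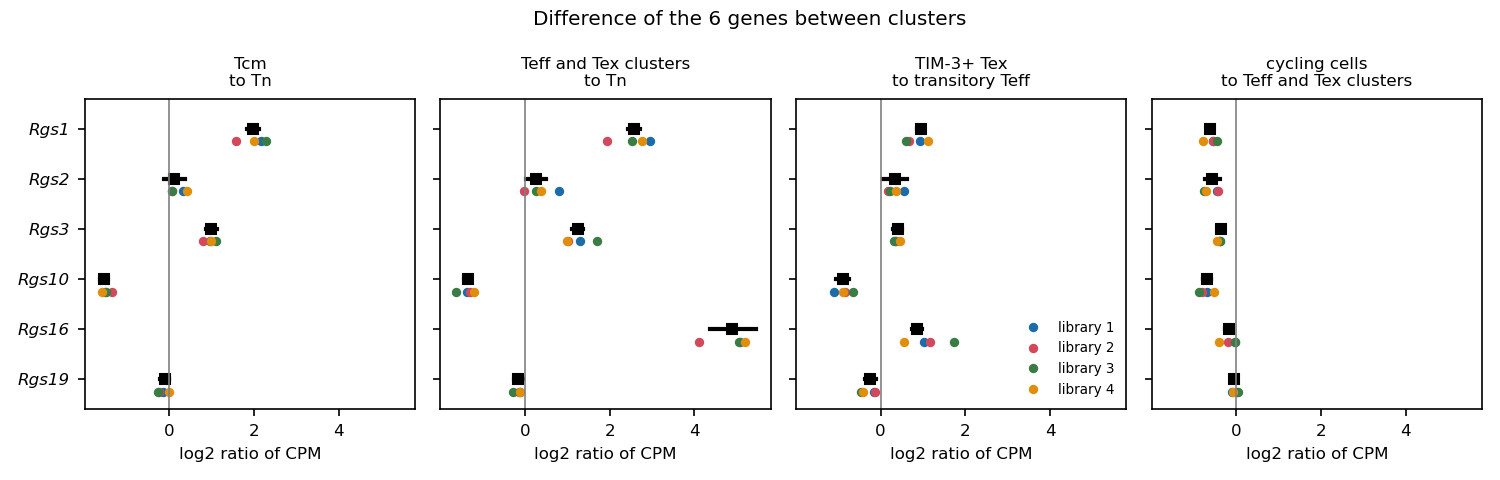
Log2 ratio of CPM of each gene in 4 comparisons of clusters (horizontal axis), with squares for the value over all libraries, bars for the exact 95% interval of counting error and coloured points for single libraries. Rgs16 is left out of the Tcm to Tn panel, where both sides were near 3 CPM. Rgs1 is above 0 and Rgs10 below 0 in each library for Tcm and for Teff and Tex against Tn.

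The TCR gave a measure that the clustering did not use. Cells whose clonotype occurred in 2 or more cells of its library (repeated) were compared with cells whose clonotype occurred once (single), within each cluster. In transitory Teff, with 1076 repeated and 368 single cells, Rgs16 had 76.3, 74.4, 49.2 and 109 CPM in repeated cells of libraries 1 to 4 and 12.8, 23.0, 29.7 and 63.2 CPM in single cells. Repeated cells were higher in each library, although the 2 ranges overlapped. Over all libraries the values were 86.2 and 34.3 CPM, a 2.51-fold difference (log2 1.33 [0.998 to 1.68], 1.78 without library 4).

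Rgs16 was 1 of only 11 genes called higher in repeated cells of transitory Teff, which is 0.38% of 2893 genes, and 1 of 5 members tested. The other 10 included the inhibitory receptor genes Tigit (log2 1.44), Pdcd1 (1.27), Lag3 (1.26) and Ctla4 (1.16) and the transcription factor gene Tox (1.35), named after their values were seen. The rest were Plscr1 (1.32), the TCR genes Trbv1 (1.24) and Tcrg-C2 (1.21), Ccl3 (1.13) and Syt11 (1.04). Of the members, 0 were called lower, against 0.657% of genes. By size of the clonotype, Rgs16 in transitory Teff was 34.3 CPM [27.4 to 42.3] for 1 cell, 69.8 [55.8 to 86.2] for 2 to 5 cells, 73.9 [60.2 to 89.8] for 6 to 20 cells and 96.9 [86.8 to 107.9] for over 20 cells. Those cells had a median of 5908, 5147, 5017 and 4748 UMIs, and 32.6%, 24.3%, 25.6% and 17.4% of them held 2 or more UMIs of other cell types. The order did not hold in each library, since library 3 had 29.7, 21.7, 73.4 and 46.4 CPM and library 1 had 12.8, 69.0, 27.1 and 90.1 CPM. By depth, the 631 transitory Teff with fewest UMIs held 57.2 CPM and the 630 with most held 78.4 CPM.

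The same direction was found in each of the 5 Teff and Tex clusters and in cycling cells. Rgs16 was higher in repeated cells in 24 of 24 pairs of cluster and library, and the log2 ratio over all libraries ran from 0.84 [0.36 to 1.37] in TIM-3+ Tex to 2.10 [1.28 to 2.92] in GzmB+ Teff. In GzmB+ Teff this was 37.2 CPM in 141 repeated cells and 8.71 CPM in 361 single cells. Some pairs were small, down to 5 single and 9 repeated cells. Without the largest clonotype of each library the ratio in transitory Teff was 1.23, and with equal weight for each clonotype it was 1.38.

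Rgs1 was higher in repeated cells over all libraries in those 6 clusters (log2 0.44 to 0.90), and in 21 of 24 pairs. In Tcm, where 218 cells were repeated, Rgs1 did not differ beyond counting error (0.02 [−0.18 to 0.21]). In Tn, with 34 repeated cells, Rgs1 was higher in them (106 against 38.4 CPM, 1.46 [0.77 to 2.08]) and Rgs10 lower (76.9 against 166 CPM, −1.11 [−1.92 to −0.41]). Within libraries of Tn, Rgs1 was higher in 4 of 4, but Rgs10 was lower in 3 and higher in 1 (−0.90 to 0.72). Rgs10 was lower in 19 of 24 pairs. Its ratio was −1.11 [−1.36 to −0.85] in cycling cells, with 33.6 CPM in repeated and 72.5 CPM in single cells, and lower in 4 of 4 libraries. In transitory Teff it was −0.41 [−0.63 to −0.18] but −0.09 with equal weight for each clonotype. Rgs3 was higher in 21 of 24 pairs with intervals above 0 in 2 of 6 clusters, Rgs2 in 10 of 24, and Rgs19 was lower in 19 of 24 with intervals below 0 in 2 of 6 clusters.

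**Figure D3:**
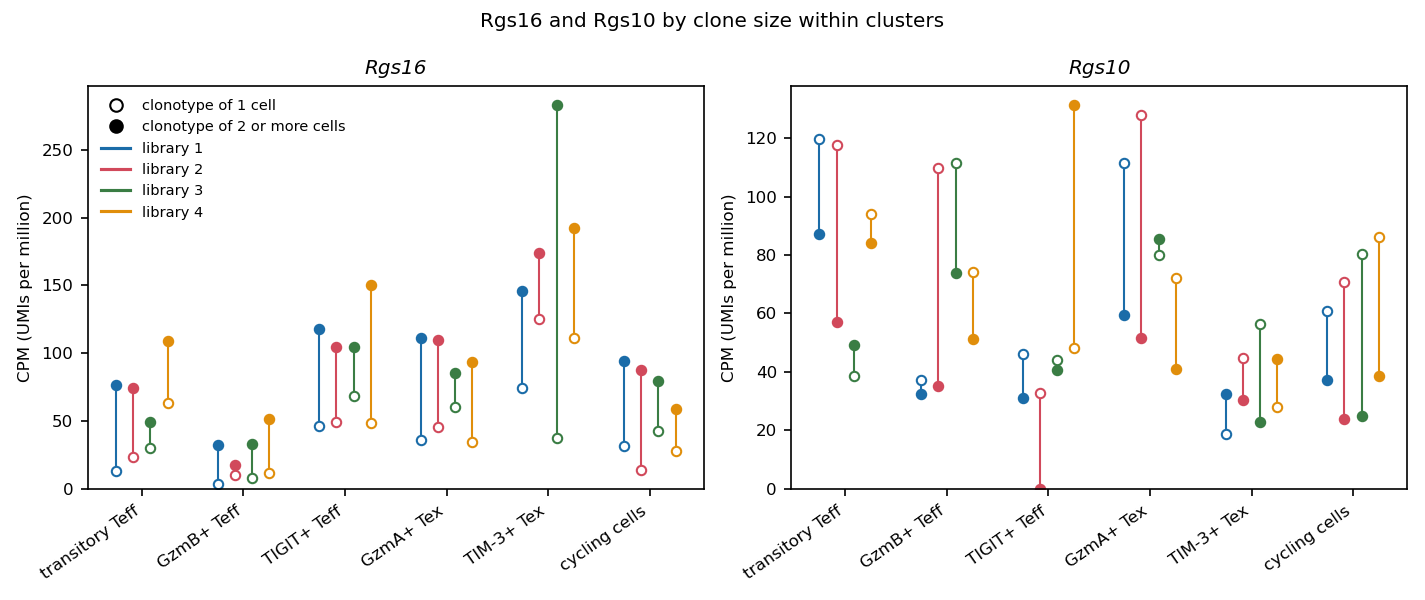
CPM of Rgs16 and Rgs10 (linear axis from 0) in cells of clonotypes with 1 cell (open points) and with 2 or more cells (filled points) of the same library, in 5 Teff and Tex clusters and cycling cells. Each line is 1 library. For Rgs16 the filled point is above the open one on all 24 lines, and for Rgs10 below it on 19.

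Clonotypes found in both transitory Teff and TIM-3+ Tex of 1 library, with at least 5 cells in each, allowed the clusters to be compared within a clone. There were 17 such clonotypes, with 7, 3, 0 and 7 in libraries 1 to 4, and clonotypes of a library share its mice. Only cells with a TCR entered. In TIM-3+ Tex these were 90.6% of the cells with fewest UMIs (591 CPM of Rgs1) and 13.6% of those with most (279 CPM). In transitory Teff they were 86.8% (222 CPM) and 55.1% (174 CPM). The part of this selection in the differences was not tested. Rgs1 was higher in TIM-3+ Tex in 16 of 17, with a median of 144 CPM in transitory Teff and 370 CPM in TIM-3+ Tex. Its highest levels in TIM-3+ Tex, 1168 and 1208 CPM, were in clonotypes of library 4 with 49 and 20 TIM-3+ Tex cells. Rgs16 was higher in 14 of 17 (median 109 and 159 CPM), Rgs3 in 12 of 17 (109 and 143 CPM) and Rgs10 in 3 of 17, being lower in 13 (72.5 and 38.6 CPM). Rgs19 was higher in 6 and lower in 11, and Rgs2 higher in 10 and lower in 6.

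**Figure D4:**
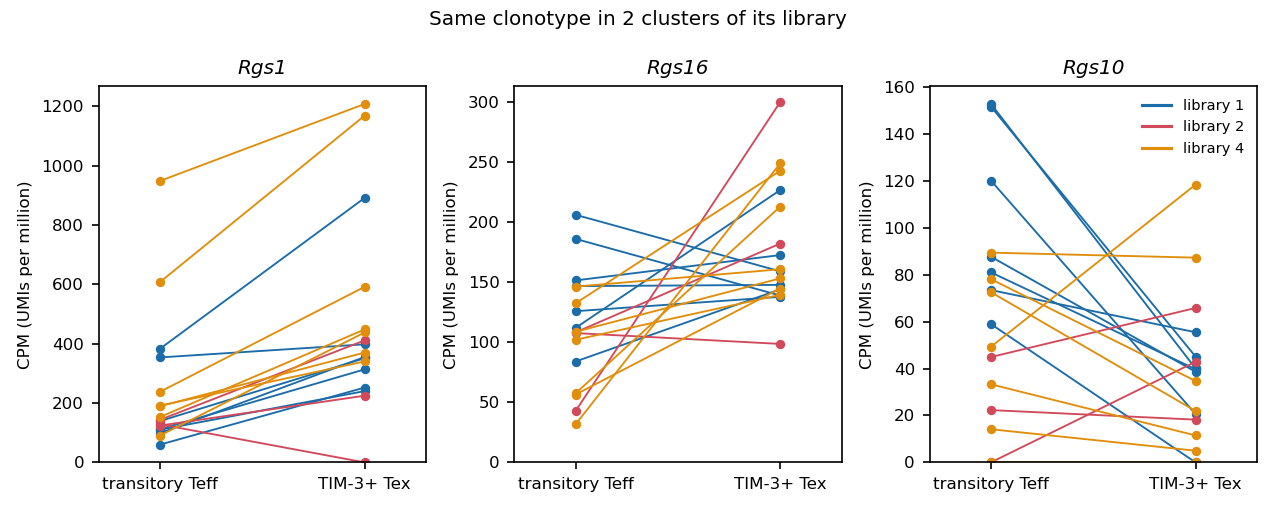
CPM of Rgs1, Rgs16 and Rgs10 (linear axes from 0) in transitory Teff and TIM-3+ Tex for 17 clonotypes present in both clusters of a library. Each line is 1 clonotype, coloured by library, and Rgs1 goes up on 16 lines, Rgs16 on 14 and Rgs10 on 3.

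The genes whose profile was most like each member were found by Pearson r of log2(CPM + 10) over the 32 values of cluster and library, which share libraries and depth. For Rgs16 these were Pdcd1 (0.97), Tigit (0.96) and Vmp1 (0.96). For Rgs1 they were Cd82 (0.91), Bhlhe40 (0.91) and AW112010 (0.89), for Rgs3 Rasa1 (0.96), Nedd9 (0.95) and Fyn (0.94), and for Rgs10 Klk8 (0.90), Il6ra (0.87) and Ccr7 (0.87). The best values for Rgs2 (Atg2a, 0.65) and Rgs19 (Cdk2ap2, 0.75) were lower. Among members, Rgs1 had r of 0.75 with Rgs3, 0.71 with Rgs16 and −0.73 with Rgs10. In single thinned cells, Rgs16 was found in 27.6% of TIM-3+ Tex with an Rgs1 UMI and 26.1% of those without one. The shares were 17.7% and 11.8% in GzmA+ Tex, 17.8% and 13.5% in cycling cells, 20.7% and 17.8% in TIGIT+ Teff, 13.9% and 11.8% in transitory Teff and 5.76% and 4.29% in GzmB+ Teff.

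Other genes of the pathway were taken as lists, counting members of 20 CPM or more in any cluster. By that rule 10.9% of 7074 genes were called higher in Teff and Tex than in Tn and 0.933% lower, with a median log2 ratio of 0.32. Of the other genes with an RGS domain, 7 of 31 were measured, 0 were called either way and the median was 0.22. These were the kinase genes Grk2 (0.54) and Grk6 (0.19), the exchange factor gene Arhgef1 (0.05), Rgs14 (0.02), Axin1 (0.22), Snx14 (0.55) and Akap10 (0.37). Of 6 measured α subunit genes, 0 were called, and Gnai2, which encodes the main Gi subunit of lymphocytes, had 480 CPM in Tn and 760 CPM in Teff and Tex (0.66 [0.62 to 0.70]). The others at the ends of this list were Gna15 (0.94), Gna11 (0.22) and Gna13 (0.16). Of 7 βγ genes, Gng2 (1.03) and Gnb4 (3.47, from 1.28 to 14.3 CPM) were called higher, with Gngt2 (0.10) and Gnb2 (0.24) at the low end. Of 4 measured modulator and arrestin genes 0 were called, from Gpsm2 (−0.41) and Arrb2 (0.03) to Ric8a (0.11) and Gpsm3 (0.24).

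Of 8 measured chemokine receptor genes, 3 were called higher and 1 lower. Cxcr6 (65.0 to 349 CPM, log2 2.43) and Cx3cr1 (6.04, from 0.642 CPM) rose, while the lymph node homing receptor gene Ccr7 fell by 3.17 on the log2 scale. Cxcr3 was at 0.30 and Cxcr4 at −0.66. Of 18 measured lipid, purine and orphan receptor genes, 4 rose, among them the prostaglandin E2 receptor genes Ptger4 (1.89) and Ptger2 (1.40) and the adhesion receptor gene Adgrg1 (6.88, from 0.367 CPM). From the same list 2 fell, namely S1pr1 (−1.24), the receptor for exit from tissue, and Gpr183 (−1.50).

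All 7 measured chemokine ligand genes were called higher in the Teff and Tex clusters together. Ccl1, Cxcl10 and Cxcl9 reached 20 CPM only in transitory Teff (25.8 CPM), GzmB+ Teff (228 CPM) and GzmA+ Tex (23.3 CPM), in that order. Cxcl9 was at most 2.96 CPM elsewhere, and GzmA+ Tex is the cluster with the macrophage markers given above. Ccl3 went from 16.2 to 993 CPM (log2 5.94), Ccl5 from 4557 to 22554 CPM (2.31) and Xcl1 was at 2.45, while Ccl1 had 0.0917 CPM in Tn and a wide interval (6.51 [4.03 to 11.8]). Of 17 immediate early genes, some of which respond to cell handling, 3 rose, and they were Egr1 (1.23), Nr4a2 (3.86) and Ier3 (1.85), while Jun was at −0.41 and Zfp36 at −0.45. Of 7 tissue residency genes 5 rose, led by Prdm1 (4.09) and Itga1 (2.94), while Cd69 was at −0.19 and Runx3 was just under 2-fold. Of 5 egress genes 3 fell, among them Ccr7 and S1pr1, and Klf2 (−0.71) and Klf3 (−0.68) were not called. The exhaustion list had 11 of 12 higher, led by Havcr2 (5.43) and Pdcd1 (5.34), with Nfatc1 at 1.45 and Eomes, not called, at 0.96. The interferon list had 10 of 11 higher, each of the 10 highest in GzmB+ Teff. Usp18 was at 294 CPM there but below Tn (29.6 CPM) in the other Teff and Tex clusters. Oasl2 (81.3 CPM) and Rsad2 (153 CPM) reached 20 CPM only there. Oasl2 was below Tn in transitory Teff, TIGIT+ Teff and TIM-3+ Tex. All but Usp18 and Oasl2 were above Tn in each Teff and Tex cluster. The cell cycle list had 9 of 12 higher. Of these, Cdk1, Ccnb1 and Ccna2 reached 20 CPM only in cycling cells, which were not part of this comparison.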

How the data were processed

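Per the labels and methods, CD8+ T cells of 4 groups were sequenced for gene expression and TCR. The authors processed reads with Cell Ranger (version 7.00 and build mm10 in the submitters' processing notes), downsampled them across libraries, and kept cells over 2500 and under 25000 UMIs with under 15% mitochondrial reads and Cd3e/g and Cd8a expression. The deposited expression values are raw counts of UMIs in each cell. The deposited mitochondrial share is a fraction. Clusters, Leiden numbers and clonotypes are the authors' own.

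Genes were named through GENCODE M21 (17534 of 17561 had a symbol). UMIs were summed over cells of a cluster and divided by all their UMIs (CPM). CPM have exact Poisson intervals, ratios exact conditional binomial and shares Clopper-Pearson intervals, at 95%, and UMIs of a cell are not independent samples of mice. A count of 0 was set to 3 counts in ratios of single libraries. Shares were taken after thinning to 2500 UMIs (seed 7). The call rule was tested on simulated data. Doublets were not removed, and cells with several TRB chains or with UMIs of other cell types were left out as alternatives. No treatment was assigned to a library, so no test was run.

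Named were the 6 members, other RGS domain genes of 20 CPM or more, the 2 highest and 2 lowest of each list where a list is described, Gnai2, Cxcr3, Cxcr4, Cxcr6, Ccr7, S1pr1 and Cd69, and the 3 most alike genes per member (50 CPM or more). Some genes that this rule names are not reported here. The members and lists were chosen with earlier results of these data known. Comparisons of clone size in clusters other than transitory Teff, of TIGIT+ Teff with the other Teff and Tex clusters, of GzmB+ with transitory Teff and of Teff and Tex with Tcm, as well as clonotype size classes, depth classes and co-detection, were chosen after seeing the data. Python 3.11.15, NumPy 2.4.6, SciPy 1.17.1 and pandas 2.3.3 were used.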

Additional observations from a re-analysis of the deposited data

How the results depend on the processing

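No paired analysis was possible because no value comes from a test, each treatment being 1 library, but the ratios between clusters were also taken within each library. No value that was called changed direction under any alternative. Of 78 alternative values of the Teff and Tex to Tn log2 ratios, 68 stayed within the interval of counting error of the reported value. The exceptions were Rgs1 at 2.36 with clusters by Leiden number and 2.43 with clonotypes weighted equally, Rgs2 at 0.020 without cells with UMIs of other types, Rgs3 at 1.39 as the mean of single cells and 1.08 without TIGIT+ Teff (chosen after seeing the data), and Rgs10 at −1.50 thinned, −1.54 as the mean of single cells, −1.25 by Leiden number and −1.45 without cells with UMIs of other types. Leaving out 1 library at a time gave 2.47 to 2.78 for Rgs1, with the highest value without library 2. The number of genes called between Teff and Tex and Tn, 272 of 2936, was 738 at 1.5-fold, 69 at 4-fold, 565 of 5842 at 20 CPM and 10 UMIs, and 247 to 320 with 1 library left out. For TIM-3+ Tex against transitory Teff 48 of 66 values stayed within that interval, and Rgs16 moved from 0.86 to 1.82 by Leiden number. For cycling cells it was 62 of 78, for Tcm against Tn 64 of 66 and for clone size 68 of 72. The most alike genes changed with the measure, since 10 of 12 repeats with Spearman's rank correlation or over 8 clusters shared too few of the 3 genes. All 48 shares of cells were higher unthinned. With 31 cells of TIM-3+ Tex in library 3, values of that library rest on few cells. The causes of these shifts were not tested.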
